A study of Mus musculus with 8 samples.

Results

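Stromal and endothelial marker genes were followed in cultured mouse kidney tubular cells with and without Aldh2. The set was 10 genes chosen by name: Pdgfra, Pdgfrb, Bgn, Dcn, Lum and Thy1 as markers of fibroblasts and pericytes, and Eng, Esam, Pecam1 and Kdr as markers of endothelium. Of these, 5 (Pdgfrb, Bgn, Thy1, Eng and Esam) were among the 14145 genes of the deposited table. Pdgfra, Dcn, Lum, Pecam1 and Kdr were not analysed here. In every gene of the table at least 1 group had a mean of 0.5 FPKM or more (FPKM being reads or fragments scaled to gene length and library depth).

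The control group was 4 libraries of untreated primary tubular epithelial cells from mice called Aldh2Ctrl in the design and WT in the titles. The knockout group was 4 such libraries from Aldh2TEC-KO mice, which by that name lack Aldh2, a mitochondrial aldehyde dehydrogenase, in tubular epithelium. The labels state neither the driver of the deletion nor the age of the mice. Nor do they tie libraries to separate animals, and p-values below therefore speak of the spread among libraries, part of which may be technical. The genotype labels of the knockout samples name a different ALDH gene in each, so groups were taken from the titles. All cells had grown in medium with fetal bovine serum.

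The kidney interstitium holds fibroblasts, and pericytes wrap its capillaries. These cells receive platelet-derived growth factor, released by endothelium and injured tubules, through the receptors Pdgfra and Pdgfrb, and they lay down the collagens and small proteoglycans of the matrix. Endothelial cells line the capillaries and are known by the receptors and adhesion proteins that guide vessel growth and seal the junctions between them. Several of these markers are not exclusive: endoglin is also made by mesenchymal cells and macrophages, and biglycan by many cell types in culture.

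Aldh2 fitted the titles, at 23.69 to 31.08 FPKM in the controls and 0.88 to 1.64 FPKM in the knockouts. Depths recovered from the FPKM were 17050000 to 18750000 reads or fragments per library. Epithelial markers were present in every library: Krt8, a keratin of simple epithelia, was at 266.88 to 3553.02 FPKM, and Epcam, an epithelial adhesion protein, at 27.37 to 159.34 FPKM. Xist and Y-linked transcripts placed the 4 controls and knockout 3 and 4 as male and knockout 1 and 2 as female. Knockout 3 and 4 also stood apart in 14 mitochondrial transcripts, whose levels summed to 4236 and 5033 FPKM there and to 11690 to 21741 FPKM in the other 6 libraries.

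Biglycan, PDGF receptor beta, endoglin and Esam were lower in all 4 knockout libraries than in any control library, at 20.8% to 37.0% of the control mean, and Thy1 was not. None of the 5 passed the test over all genes (limma on log2(FPKM + 1), adjusted p below 0.05), at which 0.0778% of all genes were called, and 0 of the 5 passed by limma-voom on recovered reads. At an unadjusted p below 0.05, 4 of the 5 were lower, against 11.6% of all genes. Non-overlap with lower knockouts was found in 6.86% of all genes and in 4 of these 5, which were chosen with earlier results of these data known. Esam had a knockout mean under 0.5 FPKM and so was listed through its control level. Without Esam the count was 3 of 4. In bulk libraries, fewer cells of a type and less RNA per cell cannot be told apart.

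**Figure D1:**
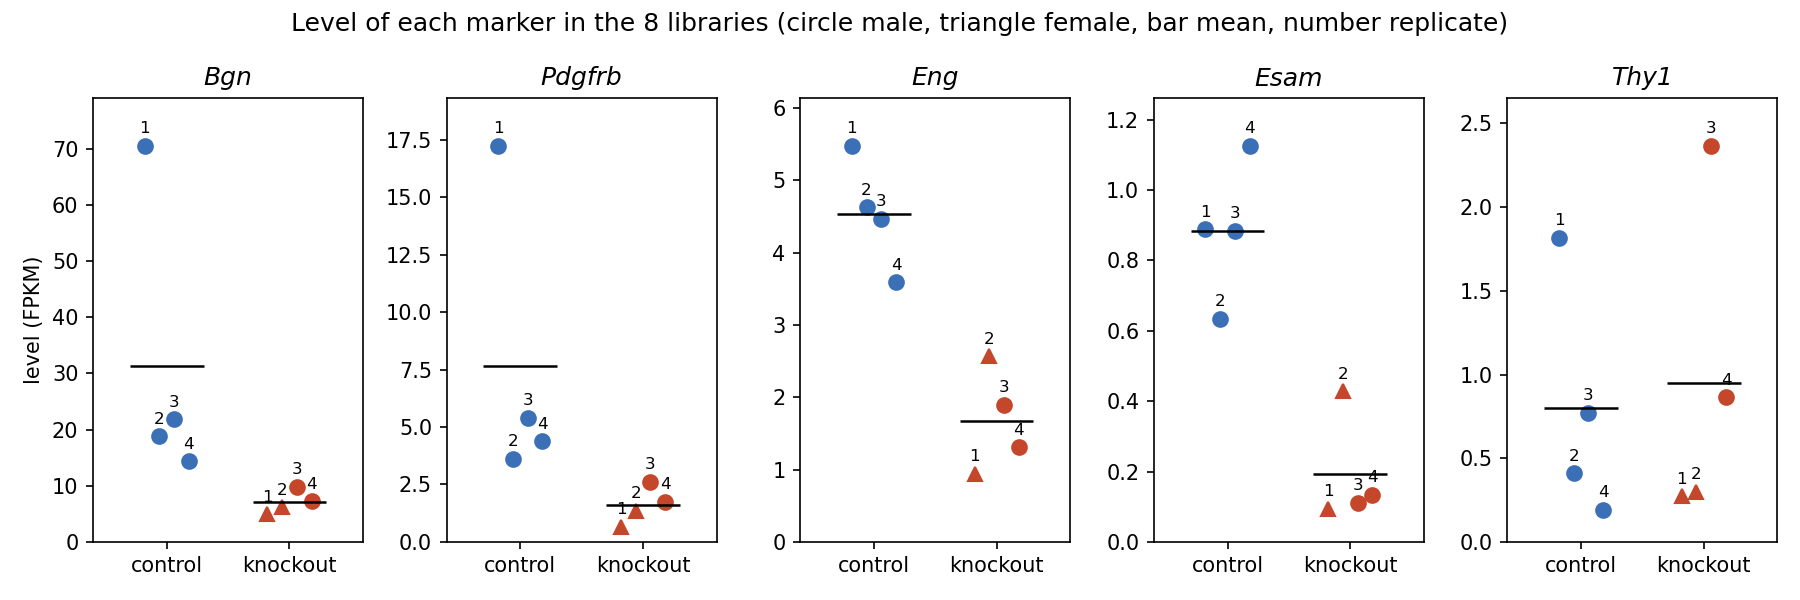
FPKM of the 5 listed markers (vertical axes from 0, 1 scale per gene) in the 4 control and 4 knockout libraries. Circles are male and triangles female libraries, bars are group means and numbers are replicates. Control 1 stands above the other controls for Bgn, at 70.53 FPKM, Pdgfrb, at 17.25 FPKM, and Thy1, at 1.82 FPKM, and the groups overlap for Thy1 alone.

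Bgn (ENSMUSG00000031375, GRCm38 chromosome X, 73483602 to 73495933, plus strand, protein coding) encodes biglycan, a small leucine-rich proteoglycan that binds collagen and, when released from matrix, Toll-like receptors. Its promoter window is printed because Bgn showed, of the 5, the largest difference on the log2(FPKM + 1) scale. The window runs from 250 bases before to 50 bases after the start in RefSeq (GRCm38.p6, chrX:73483351-73483650, plus strand), 5′ to 3′, with each GGAAG or CTTCC, the core letters bound by ETS-family factors read on either strand, in capitals.
Bgn: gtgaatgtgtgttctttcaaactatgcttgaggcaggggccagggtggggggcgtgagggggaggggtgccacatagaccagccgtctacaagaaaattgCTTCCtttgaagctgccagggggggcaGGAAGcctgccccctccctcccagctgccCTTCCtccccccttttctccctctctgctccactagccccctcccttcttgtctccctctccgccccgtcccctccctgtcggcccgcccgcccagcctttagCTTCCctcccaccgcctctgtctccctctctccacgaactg
The window held 4 matches to GGAAG, 3 to the GC box GGGCGG (2 of which share bases) and 0 to the TATA box TATAAA, both strands searched. Of all 32851 windows of that length, 71.4% held GGAAG, 35.7% the GC box and 13.6% the TATA box, so the first is no distinguishing feature.

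Biglycan was the most abundant of the 5 per unit length in every library. Control 1 to 4 held 70.53, 18.77, 21.79 and 14.37 FPKM, whereas knockout 1 to 4 held 4.96, 6.21, 9.85 and 7.27 FPKM. Control 1 stood apart, at 3.85 times the mean of the other controls, while control 4 was 1.46 times knockout 3, its nearest knockout. Group means came to 31.4 ± 26.3 FPKM for controls and 7.07 ± 2.08 FPKM for knockouts (SD, n = 4 each), a log2 fold change of -1.75 (SE 0.43, limma, adjusted p = 0.135), with a 95% interval of -2.72 to -0.78. Without control 1 the control mean was 18.3 FPKM and the log2 fold change -1.27 (limma, adjusted p = 0.154). At 557 to 7428 reads per library, counting error was small beside the differences between libraries. The level was scaled to an exon-union length of 6099 bp that takes in all annotated transcripts, so its order against other genes depends on that length.

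Pdgfrb (ENSMUSG00000024620, GRCm38 chromosome 18, 61045150 to 61085061, plus strand, protein coding) encodes the tyrosine kinase receptor for PDGF-B and PDGF-D that is used as a marker of pericytes, mesangial cells and fibroblasts. Control 1 to 4 held 17.25, 3.62, 5.41 and 4.38 FPKM, whereas knockout 1 to 4 held 0.65, 1.35, 2.62 and 1.75 FPKM. Its level in control 1 was 3.86 times the mean of the other controls, and the lowest control was 1.38 times the highest knockout. Group means came to 7.66 ± 6.43 FPKM for controls and 1.59 ± 0.820 FPKM for knockouts (SD, n = 4 each), a log2 fold change of -1.56 (SE 0.43, limma, adjusted p = 0.152), with a 95% interval of -2.51 to -0.61. Reads behind these values ran from 338 to 1632 per control library and from 66 to 269 per knockout library. With control 1 left out the log2 fold change was -1.12 (limma, adjusted p = 0.199), and the knockout mean was 35.6% of the control mean in place of 20.8%.

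Thy1 (ENSMUSG00000032011, GRCm38 chromosome 9, 44043384 to 44048579, plus strand, protein coding), a glycolipid-anchored surface protein of fibroblasts, neurons and T cells, behaved otherwise. Control 1 to 4 held 1.82, 0.41, 0.77 and 0.19 FPKM, whereas knockout 1 to 4 held 0.27, 0.30, 2.37 and 0.86 FPKM. Knockout 3 was the highest library and control 4 the lowest, and the groups overlapped over most of their range. The log2 fold change was 0.08 (SE 0.36, limma, adjusted p = 0.915), with a 95% interval of -0.73 to 0.88, which leaves room for a change in either direction. These values rest on 10 to 133 reads per library. Control 1 was 3.97 times the mean of the other controls, and without it the knockout mean was 207% of the control mean in place of 119% (log2 fold change 0.32, limma, adjusted p = 0.643). Its direction turned with the libraries used: 0.56 among male libraries and -0.41 without knockout 3 and 4, neither past the threshold (limma, adjusted p = 0.291 and 0.561).

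Eng (ENSMUSG00000026814, GRCm38 chromosome 2, 32646595 to 32682669, plus strand, protein coding) encodes endoglin, a co-receptor for BMP9, BMP10 and TGF-beta ligands in endothelium. Its promoter window is shown for comparison with that of Bgn, as the other marker with an entry in the table, in the same form (RefSeq, GRCm38.p6, chr2:32646345-32646644, plus strand).
Eng: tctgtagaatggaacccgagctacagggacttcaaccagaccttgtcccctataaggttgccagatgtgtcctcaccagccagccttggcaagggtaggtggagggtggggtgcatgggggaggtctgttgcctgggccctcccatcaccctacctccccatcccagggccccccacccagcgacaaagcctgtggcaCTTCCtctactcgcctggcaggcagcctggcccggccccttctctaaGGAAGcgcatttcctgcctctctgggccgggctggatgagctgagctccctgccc
It held 2 matches to GGAAG and 0 to each of the other 2 motifs. Bgn and Eng were the 2 of the 5 markers matched in that table.

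Endoglin had the steadiest control levels of the 5, with a coefficient of variation of 17.0%. Control 1 to 4 held 5.48, 4.62, 4.47 and 3.59 FPKM, whereas knockout 1 to 4 held 0.94, 2.57, 1.90 and 1.31 FPKM, so knockout 2 came nearest to the controls. Group means came to 4.54 ± 0.774 FPKM for controls and 1.68 ± 0.713 FPKM for knockouts (SD, n = 4 each), a log2 fold change of -1.08 (SE 0.22, limma, adjusted p = 0.0996), with a 95% interval of -1.58 to -0.57. Control 1 was 1.30 times the mean of the other controls, and without it the log2 fold change was -1.0. Reads numbered 252 to 383 per control and 70 to 186 per knockout library. The last 61 bases of Eng overlap Fpgs on the opposite strand, and the sources do not say whether counting used strand.

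Esam (ENSMUSG00000001946, GRCm38 chromosome 9, 37528078 to 37538319, plus strand, protein coding) encodes an immunoglobulin-domain adhesion protein of endothelial tight junctions and platelets. Control 1 to 4 held 0.89, 0.63, 0.88 and 1.13 FPKM, whereas knockout 1 to 4 held 0.09, 0.43, 0.11 and 0.13 FPKM. All controls were above all knockouts, and knockout 2 alone lay near them. Group means came to 0.883 ± 0.201 FPKM for controls and 0.192 ± 0.158 FPKM for knockouts (SD, n = 4 each), so the knockout mean was 21.8% of the control mean. On the log2(FPKM + 1) scale, which compresses low levels, the difference was -0.66 (SE 0.16, limma, adjusted p = 0.128, 95% interval -1.02 to -0.30). On recovered reads it was -2.39 (limma-voom, adjusted p = 0.108).
Esam was the most thinly covered in the knockouts: the 4 knockout libraries held 5, 22, 6 and 7 reads, 40 in all (exact 95% Poisson interval 28.6 to 54.5), against 176 in the controls (151 to 204), intervals that cover counting error only.

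In FPKM the order of control means was Bgn, Pdgfrb, Eng, Esam and Thy1, and in the knockouts Bgn, Eng, Pdgfrb, Thy1 and Esam. Control means of Esam and Thy1 (0.883 and 0.798 FPKM) differed by less than the spread between libraries, as did knockout means of Eng and Pdgfrb (1.68 and 1.59 FPKM). Pdgfrb and Eng also overlapped in the controls, where Pdgfrb was above Eng in control 1, 3 and 4 and below it in control 2.

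Sex of the library moved with some of these levels inside the knockout group. Pdgfrb was at 0.65 and 1.35 FPKM in the female knockouts and at 2.62 and 1.75 FPKM in the male ones. Bgn, which is X-linked, was likewise at 4.96 and 6.21 against 9.85 and 7.27 FPKM, and Thy1 at 0.27 and 0.30 against 2.37 and 0.86 FPKM. With 2 libraries of each sex, all 4 knockouts, the part of sex in these differences was not tested. The male knockouts were also the libraries with low mitochondrial sums, so sex and that feature cannot be told apart.

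Among male libraries alone, 2 of the 5 markers passed, both lower, where 26.7% of all genes were called lower. These were Eng (log2 fold change -1.09, limma, adjusted p = 0.00495) and Esam (log2 fold change -0.74, limma, adjusted p = 0.00990). Bgn and Pdgfrb missed the threshold there (log2 fold changes of -1.49 and -1.22, limma, adjusted p = 0.0817 and 0.112). A sex covariate gave the same fold changes, since females occur only among the knockouts. It called the same 2 genes, with 21.6% of all genes called lower. Both settings compare the controls with knockout 3 and 4, which also had the low mitochondrial sums. All libraries in that contrast were male, so it is genotype and that feature that cannot be told apart in it. Leaving out knockout 2 also brought Eng and Esam past the threshold (limma, adjusted p = 0.0264 and 0.0324), with 5.28% of all genes called lower. In the authors' deposited table Pdgfrb, Bgn, Eng and Esam carry a down mark, given to 3.37% of its genes, with adjusted p of 0.801, 0.828, 0.230 and 0.0998, and Thy1 carries none.

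**Figure D2:**
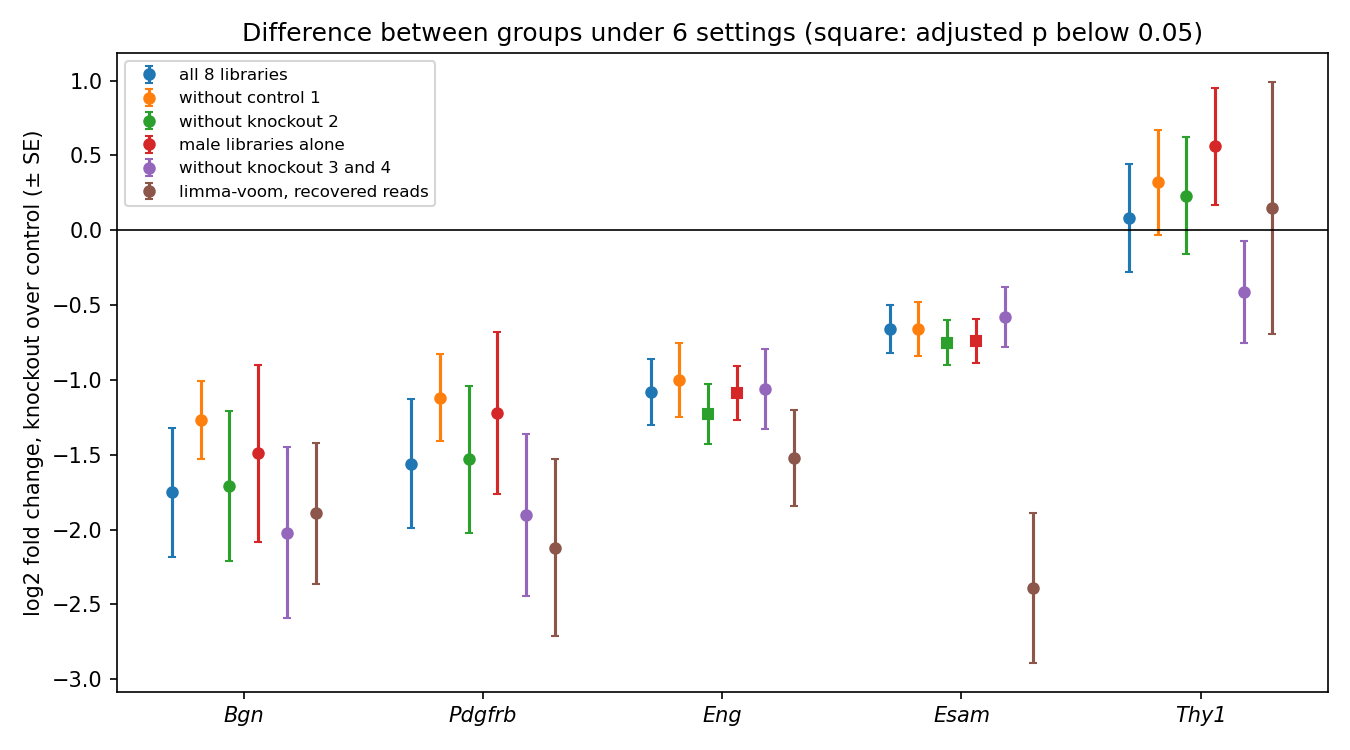
log2 fold change of knockout over control (± SE) for the 5 markers under 6 settings, on log2(FPKM + 1) or, for limma-voom, log2 of reads scaled to depth. Squares mark an adjusted p below 0.05, reached by Eng and Esam without knockout 2 and among male libraries. Thy1 lies on both sides of 0.

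Pdgfrb and Bgn had like profiles over the 8 libraries, both highest in control 1. They did not match in every step: control 2 and 4 held 3.62 and 4.38 FPKM of Pdgfrb but 18.77 and 14.37 FPKM of Bgn. Likeness was taken as the root mean square difference, over the 8 libraries, between log2(FPKM + 1) profiles centred on their means. Among 12069 genes with a mean of at least 1 FPKM, the nearest to Pdgfrb was Bgn (0.20), followed by Col5a3 (0.26) and Col3a1 (0.31), both fibrillar collagen genes. Nearest to Bgn were Col5a3 (0.19), Pdgfrb (0.20) and Col3a1 (0.25). The ratio of Bgn to Pdgfrb stayed between 3.28 and 7.58, while Pdgfrb itself ranged 26.4-fold across the libraries.

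Endoglin had other neighbours: Nhsl1, a relative of the Nance-Horan syndrome gene (0.14), Amer1, a Wnt pathway regulator (0.15), and Faxc (0.16). These 3 were at 12.05 to 15.87, 4.10 to 4.83 and 3.54 to 5.70 FPKM in the controls and at 4.06 to 8.36, 1.34 to 2.66 and 1.5 to 3.82 FPKM in the knockouts. Eng ranked 22 among the genes nearest to Pdgfrb (difference 0.59) and 29 among those nearest to Bgn (0.65). Thy1 had a mean under 1 FPKM and was not among the ranked genes. Its differences would have placed it at 1296 and 1646 in the same orders. All 8 libraries enter these differences, so a shared difference between the groups contributes to each. A shared high level in control 1 also contributes to the likeness of Pdgfrb, Bgn and the collagen genes.

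Matrix genes of the fibroblast list showed the pattern of Bgn and Pdgfrb in part. Of 20 further fibroblast and interstitial genes 11 were measured, 8 lower and 3 higher in the knockouts. Their median log2 difference was -0.52, against -0.06 for all genes. None was called, and 3 lower and 1 higher had an unadjusted p below 0.05. Over all 14145 genes, 1642 were lower and 1072 higher at that level. Without overlap, 971 of all genes were lower and 673 higher. These numbers also stand beside the counts of the lists that follow. Col1a1, the main chain of type I collagen, measured 283.23, 39.63, 48.68 and 21.64 FPKM in control 1 to 4, whereas knockout 1 to 4 measured 13.92, 22.18, 28.09 and 25.60 FPKM. Its level in control 1 was 7.73 times the mean of the other controls, and the groups overlapped through control 4.

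Col3a1, of type III collagen, was at 23.64, 3.18, 4.23 and 2.28 FPKM against 0.77, 1.06, 2.11 and 1.66 FPKM, with no overlap (log2 fold change -1.47, limma, adjusted p = 0.219). Mfap5 and the microfibril gene Fbn1 also did not overlap and were lower. Mfap5 was level among the controls, at 0.61 to 0.71 FPKM, and at 0.08 to 0.34 FPKM in the knockouts. Its knockout mean was under 0.5 FPKM, so it was listed through its control level. Fn1, fibronectin, was at 256.80 to 1659.58 against 599.47 to 896.92 FPKM, and Loxl1, a collagen crosslinking enzyme, at 35.95 to 79.44 against 36.64 to 97.09 FPKM, both overlapping. Cd34, a surface sialomucin of fibroblast, endothelial and progenitor cells, lay the other way, at 0.41 to 0.98 against 1.26 to 3.46 FPKM.

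**Figure D3:**
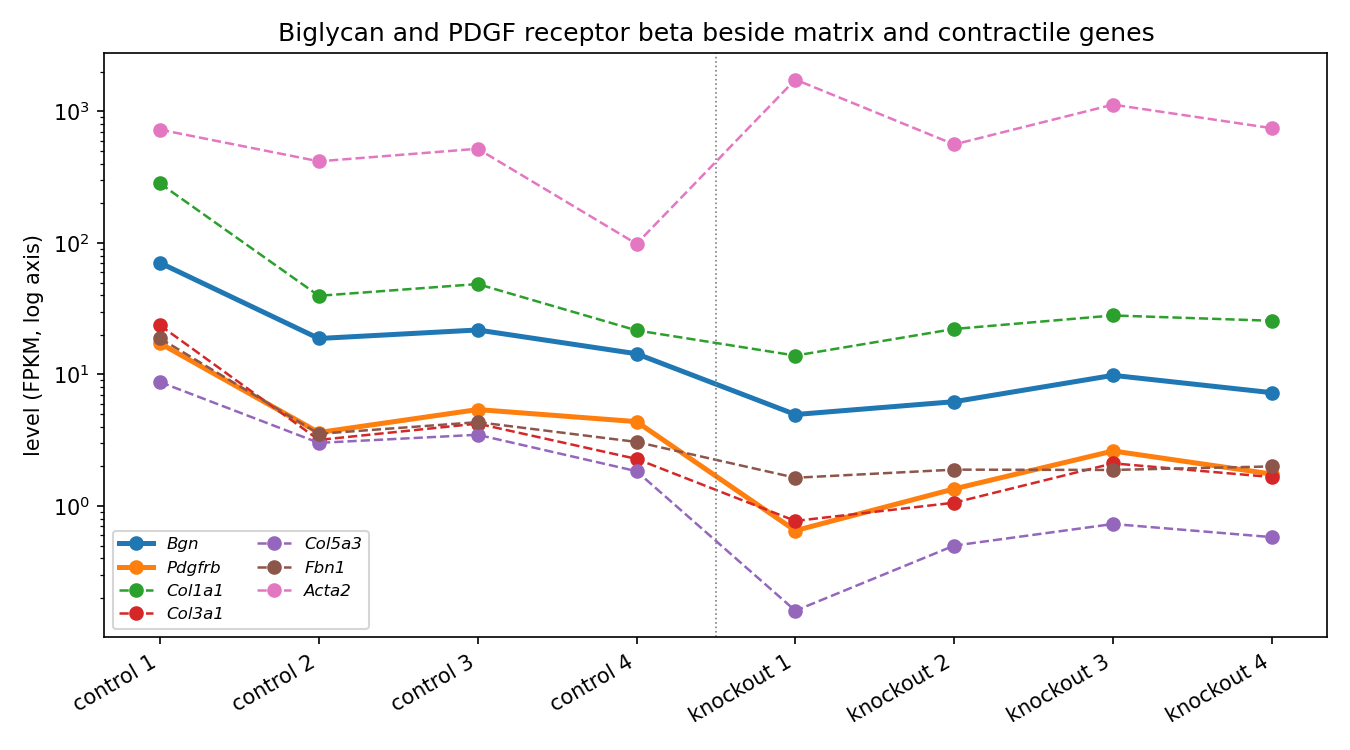
FPKM (log axis) of Bgn and Pdgfrb (solid) beside 4 matrix genes and Acta2 (dashed) in each library; lines only join the points of a gene, and a dotted line parts the groups. Control 1 is the highest library for Bgn, Pdgfrb, Col1a1, Col3a1, Col5a3 and Fbn1, and the highest for Acta2 is knockout 1, at 1745.55 FPKM.

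Genes of contractile and perivascular cells were mixed in direction. Of 15 pericyte, mesangial and smooth muscle genes 11 were measured, 5 higher and 6 lower, with a median of -0.10. None was called, and 3 were higher and 2 lower at an unadjusted p below 0.05. Rgs5 and Myh11, both lower, had knockout means under 0.5 FPKM and so were listed through their control levels. Acta2, smooth muscle actin, was at 98.40 to 726.39 FPKM in the controls and 560.69 to 1745.55 FPKM in the knockouts (log2 fold change 1.43, limma, adjusted p = 0.246). Cnn1, calponin, was at 13.24 to 47.11 against 43.41 to 86.13 FPKM, and Mcam, an adhesion protein of vessel walls, at 15.73 to 70.13 against 35.81 to 75.29 FPKM. Cspg4, the NG2 proteoglycan of pericytes, was at 4.89 to 10.24 against 0.72 to 6.87 FPKM, with knockout 2 among the controls. Myh11, smooth muscle myosin heavy chain, was the 1 gene of the list whose groups did not overlap. Control 1 to 4 held 0.80, 0.58, 0.43 and 1.02 FPKM of it, whereas knockout 1 to 4 held 0.14, 0.38, 0.28 and 0.10 FPKM, a difference of -0.47 on the log2(FPKM + 1) scale by limma (adjusted p = 0.199).

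Other endothelial genes were mixed in direction, and all those measured but Podxl and Flt4 had group means of at most 3.53 FPKM. Of 25 further genes 11 were measured, 7 lower and 4 higher, with a median of -0.27. None was called, and 2 were lower at an unadjusted p below 0.05. Flt1, Emcn, Sox17 and Ramp2, all lower, had knockout means under 0.5 FPKM and so were listed through their control levels. No higher gene of the list had a control mean under 0.5 FPKM, so the tally and median lean towards lower. Cdh5, Tek, Tie1, Erg and Vwf, which define endothelium most narrowly, were not analysed here. Podxl, a sialomucin shared with podocytes, was at 5.26 to 18.28 FPKM in the controls and 4.70 to 13.35 FPKM in the knockouts. Flt4, the receptor of VEGF-C, was at 7.66 to 14.24 against 3.26 to 16.30 FPKM, and Ehd3, of glomerular endothelium, at 2.02 to 3.69 against 2.22 to 4.66 FPKM. Prox1 was the 1 gene of the list whose groups did not overlap, at 0.82 to 1.31 against 0.39 to 0.77 FPKM. It is a transcription factor of lymphatic vessels.

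Ligands and partners of the markers were examined next. Of 13 PDGF pathway genes 12 were measured, 9 lower and 3 higher (median -0.30), none called and 1 lower at an unadjusted p below 0.05. Pdgfb, the ligand of Pdgfrb, was at 93.12 to 164.63 against 69.35 to 145.08 FPKM. The adaptor Grb2 was at 33.82 to 43.83 against 35.65 to 53.01 FPKM. Ptpn11, a tyrosine phosphatase, was at 32.90 to 43.35 against 38.09 to 44.58 FPKM. Cbl, the ubiquitin ligase that retires activated receptors, did not overlap, at 12.98 to 15.83 against 4.58 to 11.03 FPKM (limma log2 fold change -1.15, adjusted p = 0.108).

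Of 14 VEGF and angiopoietin genes 10 were measured, 9 lower and 1 higher (median -0.40), none called and 1 lower at an unadjusted p below 0.05. Vegfa, the main ligand of Kdr, was at 17.93 to 22.03 against 10.80 to 19.44 FPKM, with the 2 lowest values in knockout 3 and 4. Nrp1, a co-receptor for VEGF, was at 17.88 to 34.20 against 8.83 to 30.16 FPKM, and Vegfb at 9.93 to 23.36 against 8.66 to 21.80 FPKM. Pgf, placental growth factor, did not overlap, at 0.54 to 1.01 against 0.13 to 0.33 FPKM. Pgf, Flt1 and Angpt1, all lower, had knockout means under 0.5 FPKM and so were listed through their control levels.

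Of 15 genes around endoglin 13 were measured, 7 lower and 6 higher (median -0.30), none called. At an unadjusted p below 0.05, 4 were lower and 2 higher, against 1642 and 1072 of all 14145 genes. Without overlap, 971 of all genes were lower and 673 higher. Smad9, which was higher, had a control mean under 0.5 FPKM and so was listed through its knockout level. The BMP-responsive genes Id1 and Id3, inhibitors of helix-loop-helix factors, did not overlap and were higher, Id1 at 17.85 to 39.13 against 48.86 to 110.17 FPKM and Id3 at 16.49 to 73.23 against 80.83 to 112.26 FPKM (log2 fold change 1.13 for both, limma, adjusted p = 0.154 and 0.195). Smad1 and Smad4, which carry BMP signals, did not overlap and were lower, at 10.01 to 12.25 against 6.64 to 9.02 and 40.97 to 44.66 against 22.59 to 39.39 FPKM. Tgfbr2, the type II receptor for TGF-beta, was at 43.62 to 58.46 against 24.72 to 51.40 FPKM. Acvrl1, the type I receptor that pairs with endoglin in endothelium, was at 0.34 to 0.86 against 0.27 to 1.31 FPKM.

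Among 13 genes of junctional and immunoglobulin adhesion other than Esam, 12 were measured, 8 lower and 4 higher (median -0.14), none called and 3 lower at an unadjusted p below 0.05. Cxadr, an adhesion protein of epithelial junctions related to Esam, did not overlap, at 33.45 to 43.00 against 10.19 to 23.13 FPKM (limma log2 fold change -1.17, adjusted p = 0.0996). Magi1 and Magi3, junction scaffolds, also did not overlap and were lower. F11r, junctional adhesion molecule A, was at 55.61 to 90.17 against 58.56 to 85.31 FPKM. Of 13 relatives of biglycan 2 were measured: Ogn at 0.24 to 1.11 against 0.19 to 6.96 FPKM and Podn at 0.43 to 0.58 against 0.29 to 0.67 FPKM.

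**Figure D4:**
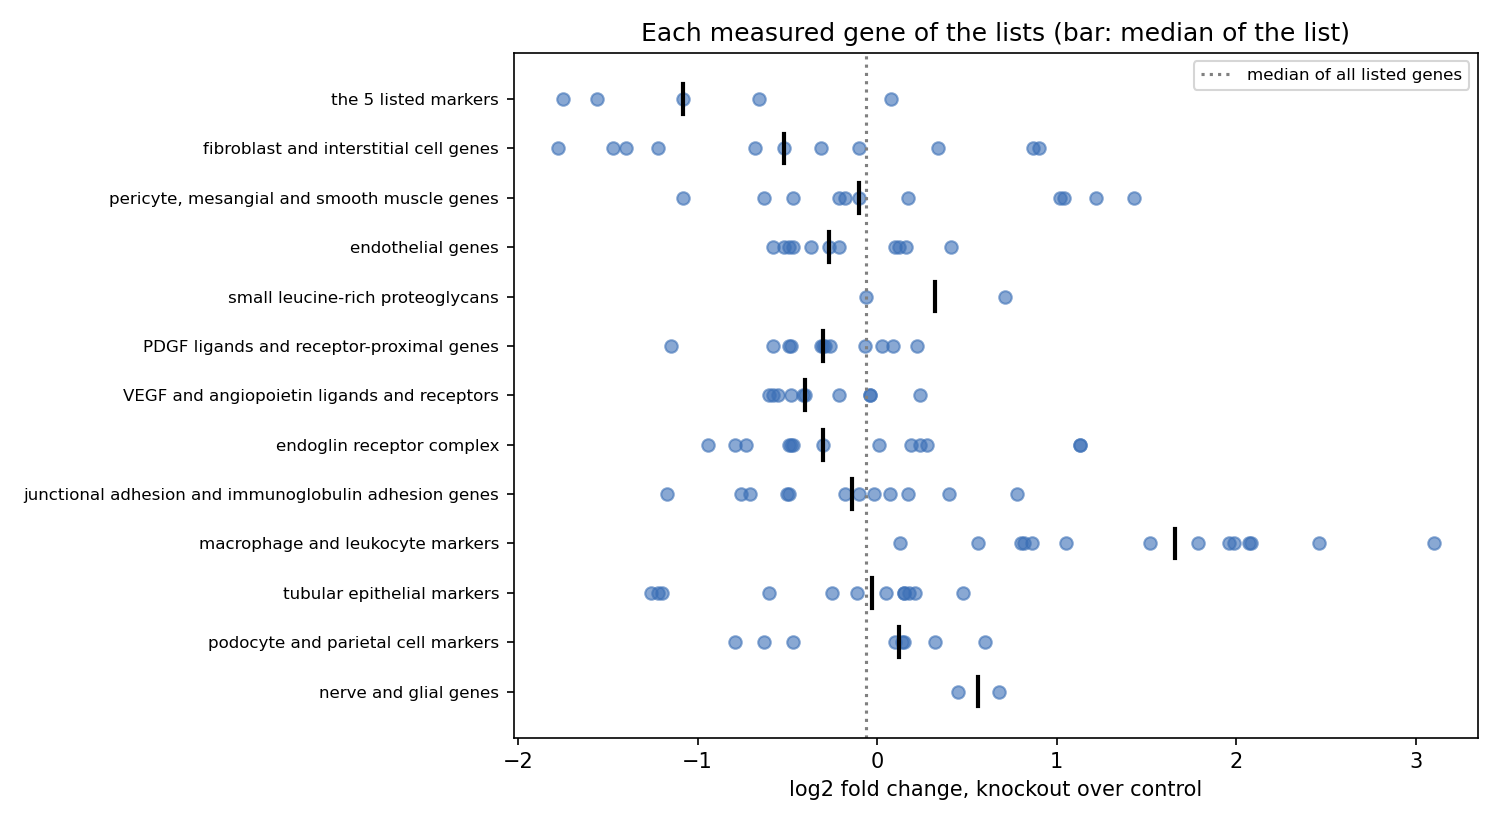
log2 fold change of knockout over control for each measured gene of the lists (points) with the median of each list (bars) and of all genes (dotted line). The 5 listed markers have a median of -1.08, the further fibroblast genes -0.52, the further endothelial genes -0.27 and the macrophage markers 1.66.

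Markers of other cells moved between these libraries as well. All 14 measured of 16 macrophage and leukocyte markers had a higher knockout difference (median 1.66), none called and 5 at an unadjusted p below 0.05. Their summed level ran from 48.5 to 1054 FPKM in the controls and from 230 to 1736 FPKM in the knockouts, and control 1, the library with the highest Bgn and Pdgfrb, was also the control with the highest macrophage sum. Lyz2, lysozyme, was at 9.38 to 674.09 against 82.57 to 990.32 FPKM. The complement genes C1qa and C1qb were at 2.94 to 97.05 against 25.95 to 156.26 and at 2.28 to 77.22 against 29.65 to 164.91 FPKM. For these 3 genes control 1 was the library through which the groups overlapped. None of the 14 was at 0 in all libraries. Ptprc and Itgam had control means under 0.5 FPKM and so were listed through their knockout levels. Of all 14145 genes, 1072 were higher at an unadjusted p below 0.05.

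Tubular epithelial markers (12 of 16 measured, 6 higher and 6 lower, median -0.03) summed to 2491 to 4638 FPKM in the controls and 1101 to 8568 FPKM in the knockouts, lowest in knockout 2. None was called, and 2 were lower and 0 higher at an unadjusted p below 0.05. These were Epcam, at 85.71 to 159.34 against 27.37 to 107.36 FPKM, and the epithelial cadherin Cdh1, at 107.82 to 209.78 against 30.10 to 155.82 FPKM. Their log2 differences by limma were -1.22 and -1.26 (adjusted p = 0.177 and 0.220). Both overlapped between the groups and were lowest in knockout 2, while the 4 markers Pdgfrb, Bgn, Eng and Esam were lowest in knockout 1. For Esam that rested on 5 reads, against 6 and 7 in knockout 3 and 4. Krt18 and Cldn4, the other abundant members, were at 319.09 to 979.44 against 149.09 to 2154.53 FPKM and at 362.82 to 864.15 against 133.89 to 1320.60 FPKM. For podocyte and parietal cells 8 of 10 markers were measured (median 0.12), with Cldn1 at 90.36 to 159.95 against 45.37 to 94.49 FPKM, Pdpn at 23.52 to 76.11 against 26.58 to 70.01 FPKM and Nes at 40.82 to 64.66 against 43.89 to 63.06 FPKM. Of 6 nerve and glial genes, Ncam1 and Tubb3 were measured, at 9.20 to 17.81 against 5.44 to 31.55 FPKM and at 0.74 to 5.42 against 3.23 to 6.66 FPKM. None of the podocyte, parietal, nerve and glial genes was called, with 1, Cldn1, lower at an unadjusted p below 0.05, and the part of the makeup of the cultures in the levels of the 5 markers was not tested.

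**Figure D5:**
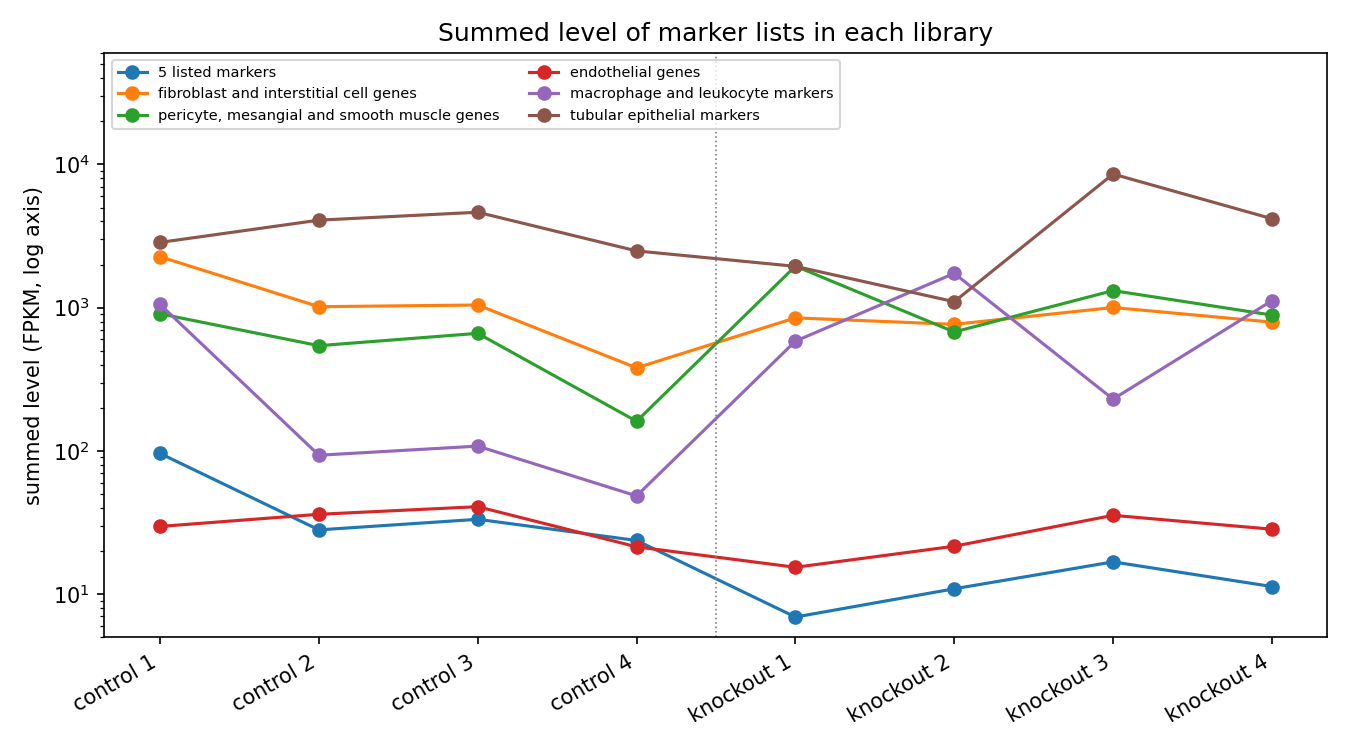
Summed FPKM (log axis) of the 5 listed markers and of 5 lists in each library; lines only join the points of a list. The 5 markers sum to 96.0 FPKM in control 1, 23.7 to 33.3 FPKM in the other controls and 6.92 to 16.8 FPKM in the knockouts, while the macrophage sum is 1054 FPKM in control 1 and 1736 FPKM in knockout 2. Bgn makes up most of the marker sum in each library, at 70.53 FPKM in control 1. Lyz2, at 674.09 FPKM in control 1 and 990.32 FPKM in knockout 2, makes up most of the macrophage sum there.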

How the data were processed

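RNA-seq of 8 libraries (4 control, 4 knockout) was used from a table of 14145 genes. The authors deposited FPKM, 1 column per library. Per the submitters' processing notes the build was GRCm38 and the tools were STAR 2.4.1d, FastQC and DESeq2; neither counter nor annotation is named. Per the file headers the authors also deposited log2 fold changes, p-values and adjusted p-values.

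Reads were recovered from FPKM and GENCODE M21 exon-union lengths (14134 genes): 95.0% to 95.5% of values of 1 to 200 reads were whole to within 0.05 read, and 10.2% to 12.4% were with a wrong step. Testing used limma 3.58.1 (R 4.3.3) on log2(FPKM + 1) with a variance trend and genotype alone in the model, adjusted by Benjamini-Hochberg over all genes. The procedure was tried on simulated data with independent noise for each gene. These held no differences shared by whole libraries, such as sex, so they do not show how the test behaves under such differences. Libraries of a group differed beyond sampling noise (chi-square per gene 11.9 to 336.7).

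The markers, lists and tests were chosen with earlier results of these data known. Named beside the markers were the 3 genes of highest mean FPKM in each list, and the 3 nearest profiles of each marker with a mean of at least 1 FPKM. Col5a3 was named by its profile. Other genes of the lists (among them Acvrl1, Cbl, Cd34, Cdh1, Col3a1, Cspg4, Epcam, Fbn1, Magi1, Magi3, Mfap5, Myh11, Pgf, Prox1, Smad1 and Smad4) were named after their values were seen. Alternatives were a pseudocount of 0.1, keeping genes that reached 1 FPKM in 4 libraries, no variance trend, a sex covariate, median-ratio scaling, a replicate block, male libraries alone, no knockout 3 and 4, limma-voom on recovered reads, removal of the length and GC trend (lowess, span 0.3), and leaving out each library. Tables were handled with Python 3.11.15 and pandas 2.3.3.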

Additional observations from a re-analysis of the deposited data

Results flagged for a closer look

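Of the 10 sets of 4 libraries examined (5 markers in 2 groups), 3 held a library far from the others. The measure was Dixon's ratio of the gap to the whole range of the group. Chance flags about 1 in 20 if values are normally distributed, which was not tested for these FPKM. Pdgfrb in control 1, at 17.25 FPKM, was separated from the next control by 0.869 of the range. Bgn in control 1, at 70.53 FPKM, was separated by 0.868 of the range. Pdgfrb and Bgn had like profiles, so their flags on the same library are not independent. Esam in knockout 2, at 0.43 FPKM, was separated by 0.881 of the range, on 22 reads against 5 to 7 in the other knockouts.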

How the results depend on the processing

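Pdgfrb, Bgn and Eng were lower under all 18 alternatives and Esam under the 17 that gave it a value, with log2 fold changes of -2.12 to -1.12, -2.02 to -1.27, -1.52 to -0.93 and -2.39 to -0.58. Esam and Thy1 had no value under the filter on FPKM. Adjusted p by limma ran over these alternatives from 0.0861 to 0.380, 0.0643 to 0.369, 0.00495 to 0.368 and 0.00990 to 0.373, and the number of the markers called lower, 0 with all libraries, was 2 with the sex covariate, 2 among male libraries alone and 0 to 2 with 1 library left out (2 without knockout 2). No marker was called higher under any of them. Thy1 turned to -0.14 with the length and GC trend removed and to -0.41 without knockout 3 and 4, and lay between -0.23 and 0.32 with 1 library left out (-0.01 without control 2, -0.09 without control 4 and -0.23 without knockout 3); the cause was not tested. Of all genes, 11 were called with all libraries, 3 at a pseudocount of 0.1, 7 with limma-voom, 2 after removing the trend on length and GC, 4838 with the sex covariate, 6275 among male libraries and 1 to 1139 with 1 library left out. It was 1139 without knockout 2, 3 without knockout 3, 8 without control 4 and 1 without each of the other 5 libraries.

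The replicate block called 1 gene in all and 0 of the markers. Replicate numbers were not treated as pairs: same-numbered libraries deviated from their group means with correlations of 0.04, -0.20, 0.56 and -0.06, and libraries numbered 3 alone were each other's closest. Depth limits Esam and Thy1, at 5 to 133 reads per library; 3 reads stand for 0.0558 to 0.0614 FPKM of Esam.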

Other observations

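Control 1 was high for further genes besides Bgn, Pdgfrb and Thy1. Of 12116 genes with a control mean of at least 1 FPKM, 177 (1.46%) were in control 1 at least 3 times the mean of the other controls. Col1a2, the second chain of type I collagen, was at 123.74 FPKM there and 6.22 to 8.47 FPKM in the other controls. Angpt1, the pericyte-derived ligand of the endothelial receptor Tek, was at 3.52 FPKM in control 1, at 0.07 to 0.16 FPKM in the other controls and at 0.06 to 0.57 FPKM in the knockouts. Wt1, of podocytes and mesothelium, was at 3.74 FPKM there, at 0.45 to 1.43 FPKM in the other controls and at 0.42 to 0.69 FPKM in the knockouts. These genes were chosen after their values were seen.

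Knockout 1 had the highest level of Ogn, osteoglycin, at 6.96 FPKM against 0.19 to 1.63 FPKM in the other libraries, and of S100a4, at 6.70 FPKM against 0.20 to 2.37 FPKM. The same library had the lowest level of Pdgfrb, Bgn, Eng and Esam. Its Esam level rested on 5 reads, against 6 and 7 in knockout 3 and 4.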
